A study of Mus musculus with 8 samples.

Results

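The 10 immediate early genes described here were followed in mouse spermatocytes with and without MFN2, out of the 54532 genes listed in the expression table. They are *Fos*, *Fosb*, *Jun*, *Junb*, *Jund*, *Egr1*, *Atf3*, *Ier2*, *Zfp36* and *Dusp1*, and all 10 were found by gene name. The 10 genes were selected from the measured values, because they were higher in MFN2 cKO in all pairs of libraries, so their difference between genotypes is given as a description with no test. The 8 libraries came from C57BL/6J mice, 1 for each combination of stage, genotype and age. The stages were pachytene (P) and leptotene or zygotene (L/Z) spermatocytes, and the ages were postnatal day (PD) 24 and PD 52. By the sample labels, MFN2 WT mice carried *Mfn2* loxp/loxp without Cre, and MFN2 cKO mice carried *Mfn2* loxp/loxp together with Stra8-Cre. The floxed allele was thus common to all groups. The paper's methods also allow *Mfn2* fl/+ mice as controls. The *Stra8* promoter drives Cre in germ cells from the spermatogonial stage, and other testis cells keep *Mfn2*. The cells had been released from the testis with collagenase, DNase and trypsin and settled by gravity through a BSA gradient before RNA extraction. Because each group had 1 library, no difference within a stage and age had a replicate check.

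Immediate early genes are transcribed within minutes of a stimulus, from transcription factors already present in the cell, without new protein synthesis. Growth factors, stress, and the enzymatic dissociation of a tissue are known triggers. Their products fall into a few roles. FOS proteins pair with JUN proteins to form the transcription factor AP-1, EGR1 and ATF3 are further DNA-binding factors, and ZFP36 and DUSP1 limit the response by removing mRNAs and by switching off MAP kinases. Most of these mRNAs are short-lived, and AU-rich elements in their 3′ UTRs are one known reason.

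Most of the genes were compact, and many carried the letters of known response elements. Their longest protein-coding transcripts in GENCODE mouse release 21 had a median of 2 exons, against 7 over 21874 protein-coding genes. *Jun*, *Junb*, *Jund* and *Ier2* each had 1 exon. In that release the median span of the 10 genes was 3852.5 bases, against 17345 over protein-coding genes. *Atf3* (47744 bases) and *Dusp1* (56539 bases) were longer than the latter. RefSeq promoter windows on GRCm38.p6 reaching from upstream of the start site to shortly after it, each 300 bases long, were held for 8 of the 10 genes. On either strand, TGACG, the first 5 letters of the cAMP response element, was present in 5 of these 8 windows (*Fos*, *Fosb*, *Junb*, *Atf3* and *Dusp1*) and in 20.8% of all 32851 windows. The full element TGACGTCA, which contains those letters, was present in *Dusp1* and in 1.79% of all windows. The CArG box, which binds serum response factor, was matched in *Zfp36* and in 1.63% of all windows. The EGR motif GCGNGGGCG occurred in *Fosb* and *Zfp36*, against 5.55% of all windows, and TATAA occurred in *Fos* and *Junb*, against 24.9%. The AP-1 motif TGANTCA was present in 0 of the 8 windows and in 7.81% of all windows. A match describes letters only, and the windows are short.

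Stretches of 130 bases that end at the base before the start site are shown, because they hold most of these matches. They are 5′ to 3′ on the strand of the gene, and capitals mark the letters of any of the motifs above. They lie at chr12:85473760-85473889 on the forward strand for *Fos*, at chr7:19310046-19310175 on the reverse strand for *Fosb* and at chr7:28379229-28379358 on the reverse strand for *Zfp36*. RefSeq start sites differ in places from the gene coordinates given below. The *Zfp36* stretch lies within those coordinates, and the *Jund* window ends before the gene begins. Matches depend on the start site used.
Fos: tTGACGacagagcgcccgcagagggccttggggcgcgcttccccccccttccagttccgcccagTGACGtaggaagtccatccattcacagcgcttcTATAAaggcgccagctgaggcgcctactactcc
Fosb: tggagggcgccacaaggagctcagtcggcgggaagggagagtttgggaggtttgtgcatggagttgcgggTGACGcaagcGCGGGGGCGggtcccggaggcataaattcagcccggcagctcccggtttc
Zfp36: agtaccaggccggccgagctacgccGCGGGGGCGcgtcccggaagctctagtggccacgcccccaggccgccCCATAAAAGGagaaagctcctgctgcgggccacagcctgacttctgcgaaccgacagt

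In the 3′ UTR, the AU-rich letters TATTTAT were present in 7 of the 10 genes, against 27.5% of 20938 protein-coding genes with a 3′ UTR. Among the 8159 genes whose 3′ UTR was 0.5 to 2 times as long as the median of the 10 genes (794.5 bases), the share was 22.5%. *Zfp36* and *Dusp1* had 3 copies each, *Fos* had 2, and *Junb*, *Egr1* and *Ier2* had 0. *Zfp36* encodes a protein that binds such letters, so its own 3′ UTR is shown beside those of *Fos*, *Jun* and *Dusp1*. Each stretch of 29 bases is written in DNA letters with TATTTAT in capitals. They start at base 645 of the 3′ UTR in *Fos*, base 1160 in *Jun*, base 564 in *Zfp36* and base 93 in *Dusp1*.
Fos: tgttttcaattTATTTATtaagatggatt
Jun: ttgcttgtgcaTATTTATaatagcgttcg
Zfp36: agtgggcccttTATTTATgacgactttat
Dusp1: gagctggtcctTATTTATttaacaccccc

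Reads on genes numbered 14340665 to 20379950 a library. *Mfn2*, the targeted gene, stood at 51.3% of the MFN2 WT level in P and 41.8% in L/Z at PD 24, with 80.5% and 49.1% for these stages at PD 52. The stage labels were only partly matched by marker genes. Of 8 genes of leptotene and zygotene spermatocytes, *Dmc1* and *Prdm9* were higher in L/Z in all 4 comparisons of stage, while *Hormad1*, *Meiob*, *Meioc*, *Spo11* and *Sycp3* were higher in P. All levels below are in FPKM, that is, reads corrected by the authors for gene length and sequencing depth, so levels can be compared between genes. A ratio is followed in places by its 95% Clopper-Pearson interval, which reflects the counting error of the reads only.

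*Fos* (ENSMUSG00000021250, chr12:85473890-85477273, forward strand of GRCm38) encodes the founding FOS subunit of AP-1. In MFN2 WT, *Fos* was at 77.2 FPKM in P and 154 in L/Z at PD 24, with 37.3 and 51.5 FPKM, respectively, at PD 52. In MFN2 cKO, *Fos* was at 148 in P and 364 in L/Z at PD 24, with 112 and 154 FPKM, respectively, at PD 52. Its highest level stood at rank 58 among the 21175 genes above 1 FPKM in any library. The genotypes overlapped, because the L/Z library of MFN2 WT at PD 24 was above both P libraries of MFN2 cKO.

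*Fosb* (ENSMUSG00000003545, chr7:19302696-19310051, reverse strand) encodes a close relative that also pairs with JUN proteins. In MFN2 WT, *Fosb* was at 81.1 FPKM in P and 123 in L/Z at PD 24, with 17.98 and 33.5 FPKM, respectively, at PD 52. In MFN2 cKO, *Fosb* was at 108 and 154 at PD 24, with 75.1 and 105 FPKM, respectively, at PD 52. The low libraries were the MFN2 WT ones at PD 52, and the other 6 lay between 75.1 and 154.

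*Jun* (ENSMUSG00000052684, chr4:95049034-95052222, reverse strand) encodes the JUN subunit that can also bind DNA as a pair with itself. In MFN2 WT, *Jun* was at 82.1 FPKM in P and 80.01 in L/Z at PD 24, with 29.8 and 20.51 FPKM, respectively, at PD 52. In MFN2 cKO, *Jun* was at 103 and 157 at PD 24, with 80.8 and 70.2 FPKM, respectively, at PD 52. Thus the MFN2 cKO libraries at PD 52 were close to the MFN2 WT libraries at PD 24. The antisense gene *Junos* shares 689 bases with *Jun* and stood at 0.411 to 0.820 FPKM.

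*Junb* (ENSMUSG00000052837, chr8:84974484-84978718, reverse strand) encodes a JUN protein that is a weaker activator than JUN on many sites. In MFN2 WT, *Junb* was at 76.3 FPKM in P and 115 in L/Z at PD 24, with 45.1 and 36.2 FPKM, respectively, at PD 52. In MFN2 cKO, *Junb* was at 124 and 255 at PD 24, with 79.1 and 126 FPKM, respectively, at PD 52. It shares 351 bases with *Prdx2* on the other strand, which stood at 2.69 to 16.8 FPKM.

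*Jund* (ENSMUSG00000071076, chr8:70698949-70700616, forward strand) is the JUN gene known for steady expression in resting cells. In MFN2 WT, *Jund* was at 33.6 FPKM in P and 39.7 in L/Z at PD 24, with 18.1 and 17.5 FPKM, respectively, at PD 52. In MFN2 cKO, *Jund* was at 38.5 and 83.3 at PD 24, with 25.5 and 38.2 FPKM, respectively, at PD 52. Its highest library was 4.77 times its lowest, the smallest span among the 10 genes.

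*Egr1* (ENSMUSG00000038418, chr18:34859823-34864984, forward strand) encodes a zinc finger factor of early growth responses. In MFN2 WT, *Egr1* was at 113 FPKM in P and 176 in L/Z at PD 24, with 30.2 and 36.2 FPKM, respectively, at PD 52. In MFN2 cKO, *Egr1* was at 172 and 296 at PD 24, with 121 and 139 FPKM, respectively, at PD 52. The MFN2 WT libraries at PD 52 stood below all the others, which started at 113.

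*Atf3* (ENSMUSG00000026628, chr1:191170296-191218039, reverse strand) encodes a stress-induced factor of the ATF and CREB family. In MFN2 WT, *Atf3* was at 52.4 FPKM in P and 42.3 in L/Z at PD 24, with 10.2 and 5.77 FPKM, respectively, at PD 52. In MFN2 cKO, *Atf3* was at 64.1 and 79.1 at PD 24, with 25.01 and 39.5 FPKM, respectively, at PD 52. It was the only one of the 10 genes whose ages did not overlap, since its highest library at PD 52 (39.5) was below its lowest at PD 24 (42.3). Of all 21175 genes, 6.45% had every PD 52 library below every PD 24 library, so 1 of 10 is near the background.

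*Ier2* (ENSMUSG00000053560, chr8:84661331-84662852, reverse strand) encodes a nuclear protein of the immediate early response. In MFN2 WT, *Ier2* was at 68.2 FPKM in P and 54.5 in L/Z at PD 24, with 32.9 and 8.52 FPKM, respectively, at PD 52. In MFN2 cKO, *Ier2* was at 102 and 161 at PD 24, with 54.8 and 42.1 FPKM, respectively, at PD 52. Its highest library was 18.9 times its lowest, the widest span among the 10 genes.

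*Zfp36* (ENSMUSG00000044786, chr7:28376784-28380253, reverse strand) encodes tristetraprolin, which binds AU-rich 3′ UTRs and speeds up mRNA decay. In MFN2 WT, *Zfp36* was at 34.7 FPKM in P and 57.0 in L/Z at PD 24, with 20.7 and 16.4 FPKM, respectively, at PD 52. In MFN2 cKO, *Zfp36* was at 79.9 and 173 at PD 24, with 69.2 and 77.3 FPKM, respectively, at PD 52. It was the only one of the 10 genes whose genotypes did not overlap, with 57.0 as the highest level in MFN2 WT and 69.2 as the lowest in MFN2 cKO. Every MFN2 cKO library was above every MFN2 WT library in 0.656% of 21175 genes, and nothing is read from the count of the 10 genes, which were chosen on this contrast. The antisense gene *Gm44710* shares 1274 bases with it and stood at 0.342 to 6.81 FPKM.

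*Dusp1* (ENSMUSG00000024190, chr17:26505590-26508519, reverse strand) encodes a nuclear phosphatase that switches off p38, JNK and ERK kinases. In MFN2 WT, *Dusp1* was at 14.1 FPKM in P and 24.2 in L/Z at PD 24, with 11.3 and 14.7 FPKM, respectively, at PD 52. In MFN2 cKO, *Dusp1* was at 22.2 and 54.8 at PD 24, with 20.2 and 34.3 FPKM, respectively, at PD 52. It had the lowest mean level of the 10 genes and a narrow span, with its highest library 4.83 times its lowest. The coordinates of *Dusp1* are those of the table. GENCODE mouse release 21 extends its end to 26562128, while the other 9 genes have identical coordinates in both.

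All 10 genes thus had their highest level in the same library, L/Z of MFN2 cKO at PD 24. Their lowest level was in MFN2 WT at PD 52, in P for *Fos*, *Fosb*, *Egr1* and *Dusp1* and in L/Z for the other 6. The counting of reads was not stated to use strand, so reads on bases shared with a gene on the other strand cannot be assigned.

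**Figure D1:**
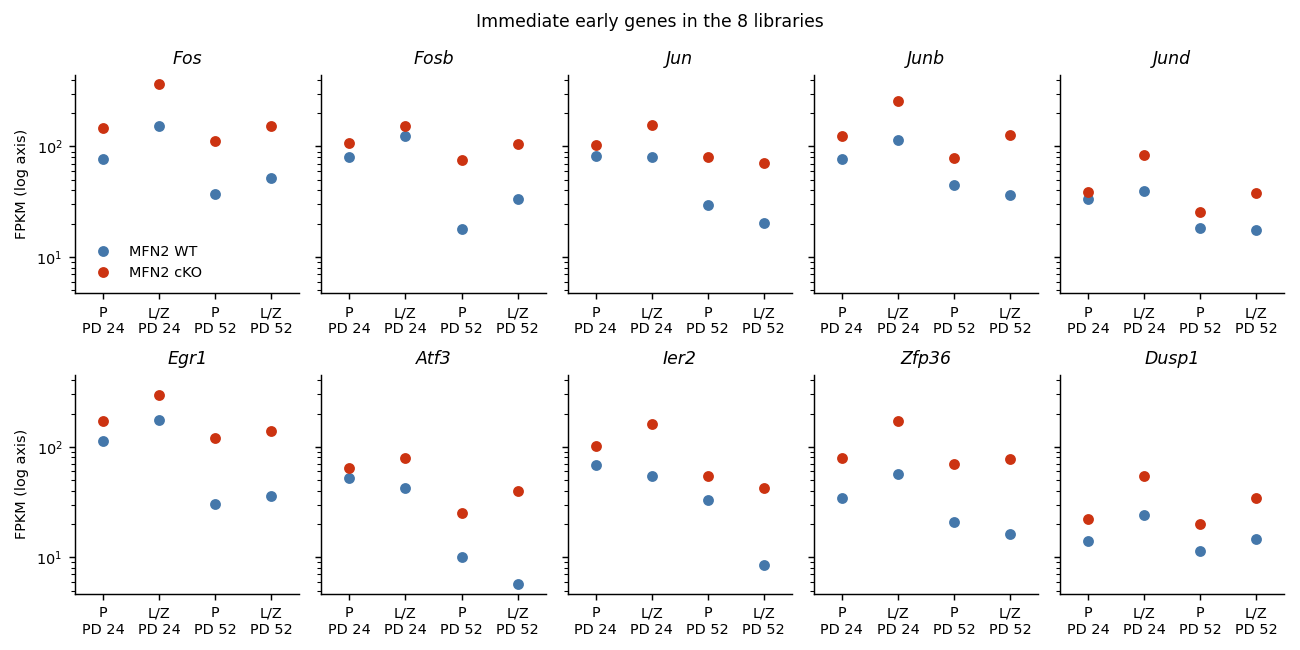
Level of each gene in FPKM (log axis) in the 8 libraries, 1 panel a gene, with stage and age on the horizontal axis, MFN2 WT in blue and MFN2 cKO in red. Each point is 1 library. In every panel the red point lies above the blue one at each stage and age, and the highest point is L/Z of MFN2 cKO at PD 24.

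Within each pair of libraries of the same stage and age, the level in MFN2 cKO was compared with that in MFN2 WT, which is the contrast that the selection used. The number of the 10 genes at least 2-fold higher on the log2(FPKM + 1) scale differed widely between pairs. It was 1 in P at PD 24, where 1.79% of 16749 genes with FPKM above 1 in either library were as much higher. In L/Z at PD 24 it was 6, against 3.45% of 17664 genes. In P at PD 52 it was also 6, against 5.21% of 17444 genes, and in L/Z at PD 52 it was 10, against 4.83% of 17860 genes. Over all 4 pairs, 10 of 10 were higher in MFN2 cKO by selection, against 7.74% of 21175 genes. Reads of the P and L/Z libraries are from bulk cells, so that more cells expressing a gene and more RNA per cell cannot be told apart.

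The median FPKM ratio of the 10 genes was 1.504 in P and 2.16 in L/Z at PD 24, and 2.59 in P and 3.45 in L/Z at PD 52. In P at PD 24 the ratios ran from 1.15 for *Jund* (interval 1.06 to 1.246) to 2.30 for *Zfp36* (2.19 to 2.41). In L/Z at PD 52 they ran from 2.19 for *Jund* (1.95 to 2.46) to 6.84 for *Atf3* (5.86 to 8.03). *Zfp36* alone was at least 2-fold higher in all 4 pairs, as 0.227% of 21175 genes were, with a mean log2 difference of 1.66 ± 0.41 (SD over 4 pairs). Its ratios were 2.30, 3.03, 3.35 and 4.71 in P and L/Z at PD 24 and P and L/Z at PD 52. *Fos* came next, at 1.92, 2.37, 3.01 and 2.99 in the same order.

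The genes did not order the pairs alike. *Fosb* had similar ratios at PD 24 in P (1.33) and L/Z (1.247), and higher ones at PD 52 in P (4.18, interval 3.97 to 4.40) and L/Z (3.14). *Egr1* also had higher ratios at PD 52 than at PD 24, with 1.52 and 1.68 at PD 24 and 3.99 and 3.83 at PD 52. *Ier2* was split by stage instead, with 1.49 and 1.67 in P and 2.96 and 4.95 in L/Z. *Jund* and *Dusp1* were also split by stage. *Dusp1* had ratios of 1.58 and 1.78 in P and of 2.27 and 2.34 in L/Z. In all 10 genes the log2 difference between genotypes was larger at PD 52 than at PD 24 at both stages, against 32.6% of 21175 genes. This contrast is the one used in the selection, and nothing is read from that count.

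**Figure D2:**
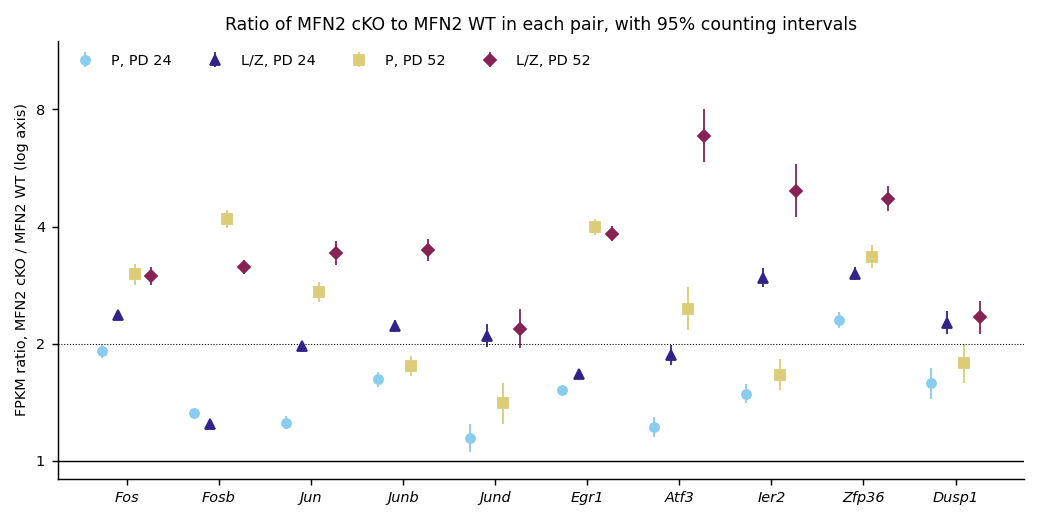
FPKM in MFN2 cKO divided by that in MFN2 WT (log axis) for each gene, with 1 symbol for each stage and age. Bars are 95% counting intervals, the solid line marks a ratio of 1 and the dotted line a ratio of 2, and all symbols of *Zfp36* and all L/Z symbols at PD 52 lie above the dotted line.

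Age was not part of the selection, and it was tested. All 10 genes were lower at PD 52 than at PD 24 in all 4 pairs that share stage and genotype, as 21.4% of 21175 genes were. In an additive fit of stage, age and genotype over the 8 libraries with limma, 9 of the 10 genes fell at PD 52 at an adjusted p-value under 0.05, against 7.55% of 21175 genes. The fit had 4 residual degrees of freedom. The median log2 difference of the 10 genes was -1.13, against 0.00 over all genes tested. The selection for one direction in all pairs also bears on the residual spread that this test uses.

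*Atf3* fell most, by 1.81 on the log2 scale (95% CI -2.58 to -1.04, limma adjusted p = 0.0116). *Ier2* fell by 1.59 (-2.41 to -0.77, adjusted p = 0.0208) and *Egr1* by 1.43 (-2.07 to -0.78, adjusted p = 0.0137). Between FOS genes, *Fosb* fell by 1.254 (adjusted p = 0.0257) and *Fos* by 1.05 (adjusted p = 0.0130). Among JUN genes the values were near each other, at -1.21 for *Jun* (adjusted p = 0.0181), -1.01 for *Junb* (adjusted p = 0.0222) and -0.92 for *Jund* (adjusted p = 0.0198). The mRNA decay factor *Zfp36* fell by 0.95 (adjusted p = 0.0359). *Dusp1* had a log2 difference of -0.44 (-0.84 to -0.04) and did not pass (adjusted p = 0.103).

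These calls rested on most of the libraries. When each library was left out in turn, between 0 and 9 of the 10 genes passed, with 0 without L/Z of MFN2 WT at PD 24 or without P of MFN2 cKO at PD 52, and 1 without L/Z of MFN2 cKO at PD 52. Without P of MFN2 cKO at PD 52, the calls of lower genes fell from 1598 to 45 over all 21175 genes. They fell to 233 without L/Z of MFN2 WT at PD 24 and to 458 without L/Z of MFN2 cKO at PD 52. Of the 10 genes, 3 passed without P of MFN2 WT at PD 24, 4 without L/Z of MFN2 cKO at PD 24 and 5 without L/Z of MFN2 WT at PD 52. Over all genes, 1051, 612 and 622 were lower in these fits. The sign stayed negative for all 10 genes in each fit with 1 library left out. With no FPKM filter, 4 of the 10 passed.

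The size of the age difference varied with genotype in the libraries as measured. This is the same quantity as the change of the genotype difference with age. It rests on the contrast used in the selection, so nothing is read from it. In MFN2 WT, the log2 difference of *Egr1* was -1.87 in P and -2.25 in L/Z, and in MFN2 cKO it was -0.51 and -1.09. For *Fosb* it was -2.11 and -1.85 in MFN2 WT, and -0.51 and -0.54 in MFN2 cKO. For *Jund* in L/Z it hardly differed, at -1.14 in MFN2 WT and -1.10 in MFN2 cKO. *Dusp1* had differences from -0.13 in P of MFN2 cKO to -0.68 in L/Z of MFN2 WT, and its -0.66 in L/Z of MFN2 cKO was larger in size than that of *Fosb*. The age difference was also set against stage by an interaction term, with 3 residual degrees of freedom. No gene of the 21175 passed in limma (1062 at an unadjusted p under 0.05), so the 0 of 10 genes that passed says nothing about these genes. Among the 10, *Zfp36* alone had an unadjusted p under 0.05 (unadjusted p = 0.0419, adjusted p = 0.846, age difference larger by 0.98 in L/Z, 95% CI 0.05 to 1.91).

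Markers of spermatids moved with age. The summed level of 8 spermatid markers was 45.3 to 1888 FPKM at PD 24 and 1613 to 17180 FPKM at PD 52, and 7 of the 8 rose at PD 52 in the same fit. None of the 8 was at 0 in any library. In P libraries alone, where that sum reached 3959 FPKM, all 10 genes remained lower at PD 52, 4 of them at an unadjusted p under 0.05 in limma, where 786 genes were lower at that p and 0 genes passed the adjustment. In L/Z libraries alone all 10 were lower as well, 9 of them at an unadjusted p under 0.05 in limma, where 1797 genes were lower at that p and 0 passed. The part of the spermatid share in the age difference was not tested.

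Stage, also not part of the selection, gave calls near the background. Of the 10 genes, 2 fell in P at an adjusted p-value under 0.05, against 13.6% of 21175 genes. The log2 difference between P and L/Z was negative for 7 genes in the fit and for 9 with a further median-of-ratios scaling. The median of the 10 genes in the fit was -0.46, against -0.04 over all genes tested. *Fos* was lower in P by a log2 difference of -0.79 (95% CI -1.26 to -0.33, limma adjusted p = 0.0272). *Dusp1* followed at -0.77 (-1.17 to -0.37, adjusted p = 0.0186). These genes, with *Fosb* and *Egr1*, were lower in P in all 4 pairs that share genotype and age, as 26.8% of 21175 genes were. The count of 4 among 10 is thus also near the background. *Fosb* had a log2 difference of -0.61 (-1.31 to 0.08, limma adjusted p = 0.164) and *Egr1* of -0.47 (-1.11 to 0.18, adjusted p = 0.240).

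The other 6 genes did not pass for stage either. *Jun* stood at 0.04 (95% CI -0.56 to 0.63) and *Atf3* at 0.02 (-0.75 to 0.79) on the log2 scale, with opposite signs under another scaling. *Ier2* was at 0.47 (-0.36 to 1.29), with a ratio of P to L/Z of 3.86 (counting interval 3.30 to 4.54) in MFN2 WT at PD 52 and of 0.632 in MFN2 cKO at PD 24. For *Junb*, *Jund* and *Zfp36* the log2 differences were -0.50, -0.46 and -0.41, with limma adjusted p of 0.147, 0.129 and 0.258. At PD 24 in MFN2 cKO the median log2 difference of the 10 genes was -0.91, against -0.09 over all genes. At PD 52 in MFN2 WT it was 0.18, against -0.06 over all genes. When each library was left out in turn, between 0 and 3 genes passed, with 0 without P of MFN2 cKO at PD 24, without L/Z of MFN2 WT at PD 24 or without L/Z of MFN2 cKO at PD 52. Over all genes, 581, 401 and 1187 were lower in P in these fits, respectively. *Fos* lost its call when no FPKM filter was used.

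**Figure D3:**
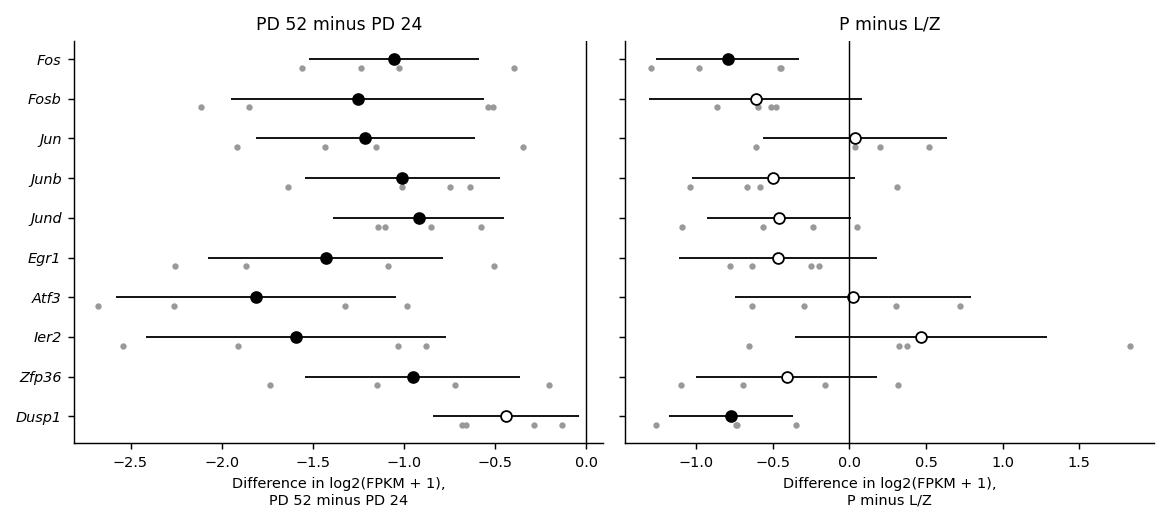
Difference in log2(FPKM + 1) of each gene between ages (left, PD 52 minus PD 24) and stages (right, P minus L/Z). Large circles with bars are estimates and 95% confidence intervals of the limma fit, filled where the adjusted p-value was under 0.05, and grey dots are the 4 pairs of libraries. All estimates lie below 0 on the left, and on the right *Fos* and *Dusp1* are filled.

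The proportions of the FOS and JUN genes were compared per length. Of the summed FPKM of *Fos* and *Fosb*, *Fos* made up between 48.7% (P of MFN2 WT at PD 24) and 70.3% (L/Z of MFN2 cKO at PD 24), with a median of 59.6%. Of the summed FPKM of the JUN genes, *Junb* made up 39.8% to 53.8%, *Jun* 27.6% to 43.6% and *Jund* 13.7% to 23.5%. *Junb* was the largest JUN gene in 6 libraries, and *Jun* was the largest in P of MFN2 WT at PD 24 (42.8%) and in P of MFN2 cKO at PD 52 (43.6%). The share of *Jund* was largest in L/Z of MFN2 WT at PD 52, where the other JUN genes were low.

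**Figure D4:**
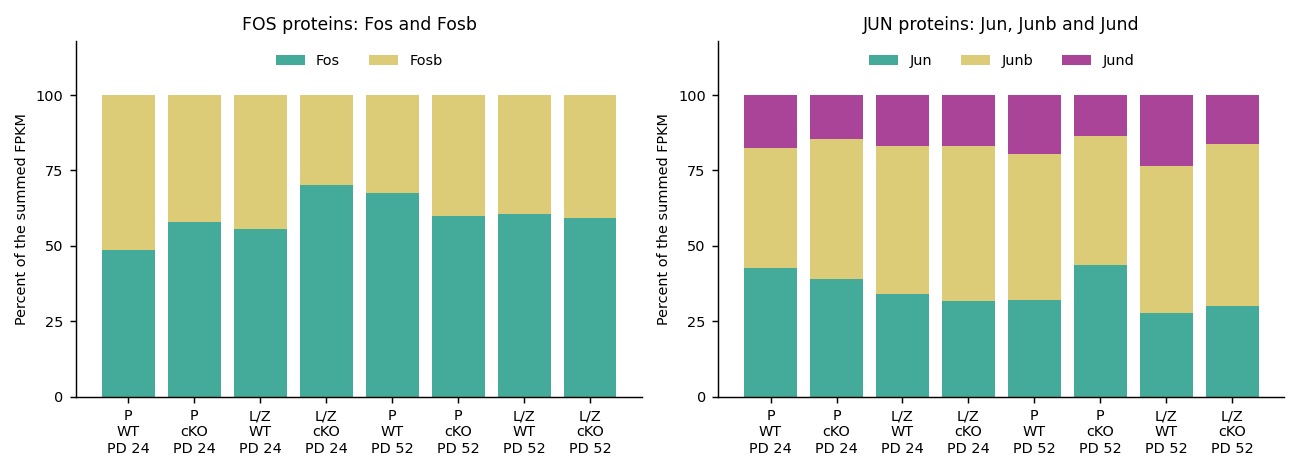
Share of each gene in the summed FPKM of *Fos* and *Fosb* (left) and of *Jun*, *Junb* and *Jund* (right), in percent, with 1 bar a library. *Fos* ranges from 48.7% to 70.3%, and *Jund* is the smallest JUN share in every bar.

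Other genes of the same response were taken from lists drawn up from general knowledge. Of 30 further early response genes, all with FPKM above 1 in some library, 17 were higher in MFN2 cKO in all 4 pairs and 0 were lower in all 4. In the fit, 16 of the 30 fell at PD 52 and 0 rose, with a median log2 difference of -0.83. Those that fell include *Btg2*, *Klf6*, *Ppp1r15a*, *Gadd45b*, *Nfkbia* and *Sgk1*. By stage, 5 of the 30 fell in P (*Klf2*, *Klf4*, *Cyr61*, *Ctgf* and *Cebpd*) and 4 rose (*Klf10*, *Gadd45a*, *Plk2* and *Nfkbiz*).

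The 3 genes of this list with the largest mean difference between genotypes were *Myc*, *Socs3* and *Cebpd*. *Myc*, a growth factor-induced transcription factor, was at 0.541 to 4.54 FPKM in MFN2 WT and at 4.29 to 13.9 FPKM in MFN2 cKO, with a mean log2 difference of 1.64. *Socs3*, which limits cytokine signalling, was at 15.0 to 42.1 FPKM in MFN2 WT and at 44.1 to 115 FPKM in MFN2 cKO, so its genotypes did not overlap. *Cebpd*, a factor of inflammatory responses, was at 2.21 to 6.51 FPKM in MFN2 WT and at 5.50 to 23.4 FPKM in MFN2 cKO. *Myc* and *Socs3* were at least 2-fold higher in all 4 pairs.

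Close relatives of the 10 genes were at much lower levels. The 10 AP-1 relatives summed to 33.3 to 73.2 FPKM, against 241 to 1776 FPKM for the 10 genes. Of the 7 relatives tested, 3 were higher in MFN2 cKO in all 4 pairs, and 5 fell at PD 52 in the fit. *Maff*, a small MAF factor, fell by 1.54 (limma adjusted p = 0.00773) and *Fosl2*, a FOS-related factor, fell by 1.05 (adjusted p = 0.00870). *Fosl1*, another FOS-related factor, had a log2 difference of -0.24 (adjusted p = 0.281). Of 8 genes of the EGR and NR4A families, 4 were higher in MFN2 cKO in all pairs and 5 fell at PD 52. *Nr4a1*, an orphan nuclear receptor, fell by 0.84 at PD 52 (adjusted p = 0.00956) and was lower in P than in L/Z by a log2 difference of -1.37 (adjusted p = 0.00260). *Nab1*, a corepressor of EGR proteins, fell by 0.62 at PD 52 (adjusted p = 0.0386). *Egr3* had mean log2 differences of -0.14 between genotypes and -0.02 between ages (limma adjusted p = 0.973 for age).

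Genes that act upstream of the response, and further feedback genes, were also counted. Of 20 upstream kinases and SRF-type factors, 1 (*Elk3*) was higher in MFN2 cKO in all pairs, 2 (*Mapk9* and *Rps6ka1*) were lower in all, and 3 fell and 1 rose at PD 52. *Elk3* stayed at or under 1.26 FPKM. *Rps6ka1*, a kinase activated by ERK, had a mean log2 difference of -0.38 between genotypes, and *Map2k1*, the kinase MEK1, of -0.05. Of 11 mRNA decay factors and MAP kinase phosphatases tested, 4 were higher in MFN2 cKO in all pairs. *Zfp36l1*, a relative of *Zfp36*, was at 4.82 to 12.4 FPKM in MFN2 WT and at 10.4 to 17.9 FPKM in MFN2 cKO. At PD 52, 3 of the 11 fell in the fit and 2 rose. *Dusp4* rose by 1.70 on the log2 scale (limma adjusted p = 0.00741), opposite to the sign of *Dusp1*. *Dusp5* fell by 0.94 (adjusted p = 0.00982) and *Dusp6* by 1.26 (adjusted p = 0.00809). *Dusp14* had a mean log2 difference of 0.09 between genotypes.

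Heat shock genes, which also respond when tissue is dissociated, were examined as a separate list of 10. Of these, 2 (*Hspa1a* and *Hspa1b*) were higher in MFN2 cKO in all 4 pairs, with *Hspa1a* at 1.32 to 5.72 FPKM. The near-identical sequences of these copies make their reads uncertain. At PD 52, 5 of the 10 fell, among them *Hspb1*, a small heat shock protein, by 1.19 (limma adjusted p = 0.0131). *Hspe1*, a mitochondrial chaperonin, had a mean log2 difference of -0.21 between genotypes. The median log2 difference between genotypes was between -0.03 and 0.38 in the 4 pairs for this list. It was between 0.58 and 1.75 for the immediate early genes, which were selected on this contrast. Nothing is therefore read from setting the 2 lists side by side.

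The likeness of the 10 genes over the libraries is given as a description, because choosing genes that are higher in MFN2 cKO in every pair in part fixes it. The Pearson correlation of each gene with the mean of the other 9 on the log2 scale was between 0.83 (*Dusp1*) and 0.98 (*Junb*) over 8 libraries that differ in genotype, age and stage. Among 7492 other protein-coding genes with a mean of at least 5 FPKM, the median correlation with the mean of the 10 was -0.13, and those most like it were *Ak3*, *Txnip*, *Rhoc*, *Cyr61* and *Cebpb*, at 0.97, 0.97, 0.97, 0.96 and 0.96. *Txnip*, a thioredoxin-binding protein gene, was at 13.8 to 36.0 FPKM in MFN2 WT and at 33.3 to 74.6 FPKM in MFN2 cKO. *Cyr61*, a secreted matrix protein gene and a known early response gene, ranged from 5.46 to 69.6 FPKM. *Cebpb*, a leucine zipper factor gene, ranged from 1.55 to 22.04 FPKM, *Rhoc*, a small GTPase gene, from 1.98 to 11.6, and *Ak3*, which encodes an adenylate kinase of mitochondria, from 5.15 to 11.9. Each had its highest level in L/Z of MFN2 cKO at PD 24, as the 10 genes did.

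Markers of somatic cells moved with genotype. All 8 Leydig cell markers were higher in MFN2 cKO in all 4 pairs, with sums of 27.9 to 263 FPKM in MFN2 WT and of 101.5 to 648 FPKM in MFN2 cKO. All 7 macrophage markers tested, of 8 on the list, were likewise higher in all 4 pairs, with sums of 5.92 to 37.8 FPKM in MFN2 WT and of 21.5 to 161 FPKM in MFN2 cKO. Of 8 Sertoli cell markers 0 moved one way in all pairs, with sums of 16.2 to 437 FPKM in MFN2 WT and of 47.7 to 530.5 FPKM in MFN2 cKO. None of these markers was at 0 in any library. The part of these cells in the difference between genotypes was not tested.

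The macrophage sum and the sum of the 10 genes had the same order of libraries at PD 24. The macrophage sum was 18.9, 37.8, 41.7 and 117 FPKM in P of MFN2 WT, L/Z of MFN2 WT, P of MFN2 cKO and L/Z of MFN2 cKO, and the 10 genes summed to 633, 866, 960.2 and 1776 FPKM. At PD 52, L/Z of MFN2 cKO was the highest library for both, with 161 FPKM for macrophage markers and 825 FPKM for the 10 genes. At that age P of MFN2 cKO, with 663 FPKM for the 10 genes, had 21.5 FPKM for macrophage markers, and L/Z of MFN2 WT, with 241 FPKM, had 21.2 FPKM. The Leydig sum was highest in P of MFN2 cKO at PD 52 (648 FPKM), where the 10 genes summed to 663 FPKM. In L/Z of MFN2 cKO at PD 24, where the 10 genes were highest, the Leydig sum was 214 FPKM. With stage, 6 of the 7 macrophage markers tested and 5 of the 5 peritubular myoid markers tested fell in P, as *Fos* and *Dusp1* did, while all 8 Sertoli markers rose in P. All 8 spermatid markers were lower in P in all 4 comparisons of stage, and 2 of them passed in the fit. Of 8 pachytene markers, 2 were higher and 3 lower in P in all 4 comparisons. The part of these cells in the stage differences was not tested. Between genotypes, 1 of 4 endothelial markers tested was higher in MFN2 cKO in all pairs, and 0 of the 8 pachytene markers moved one way in all pairs. With age, 5 of the 8 Sertoli markers fell, as did 0 of the 7 macrophage and 1 of the 8 Leydig markers.

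Markers of germ cells differed with genotype too. The spermatid sum was 963 FPKM in MFN2 WT and 45.3 FPKM in MFN2 cKO in P at PD 24, and 1888 and 145 FPKM in L/Z at PD 24. All 8 spermatid markers were lower in MFN2 cKO in both pairs at PD 24, with median log2 differences of -4.01 and -3.96. In P at PD 52 the sum was 3959 FPKM in MFN2 WT and 1613 FPKM in MFN2 cKO, with 7 of 8 markers lower, and in L/Z at PD 52 it was 8705 and 17180 FPKM, with 8 of 8 higher. Of 8 spermatogonia markers, 3 were at least 2-fold lower in MFN2 cKO in each pair at PD 52 and 0 in each pair at PD 24. In P at PD 24, 6 of the 8 were higher in MFN2 cKO and 2 were lower. Over all 4 pairs, 1 (*Gfra1*) was higher in each and 1 (*Stra8*) was lower in each. The 10 immediate early genes were higher in MFN2 cKO in all of these pairs, and the part of these germ cells in that difference was not tested.

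**Figure D5:**
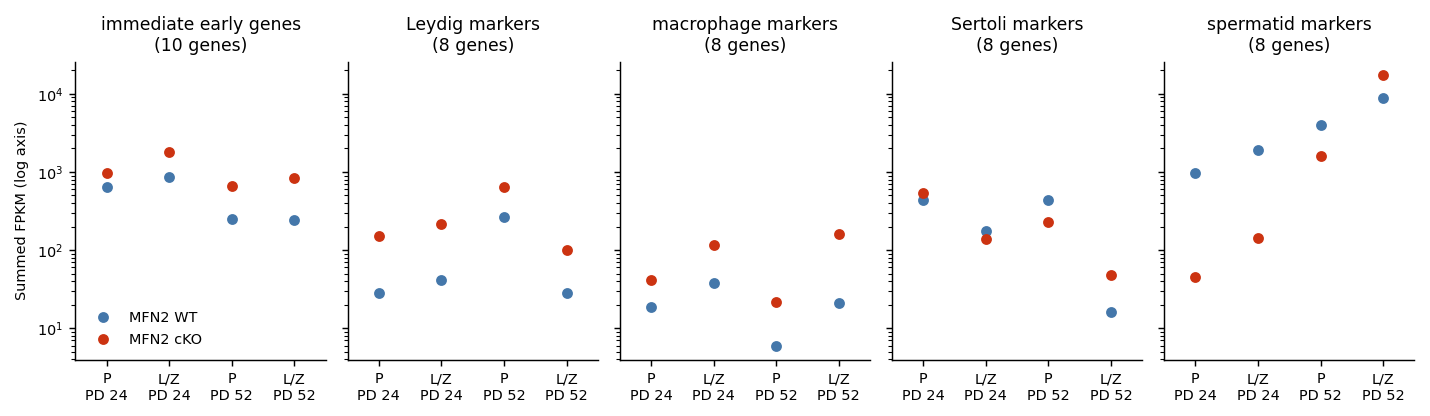
Summed FPKM (log axis) of the 10 immediate early genes and of 4 lists of cell type markers in the 8 libraries, with MFN2 WT in blue and MFN2 cKO in red. The Leydig and macrophage sums are higher in MFN2 cKO at each stage and age, the Sertoli sums are not, and the spermatid sum is highest in L/Z at PD 52.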

How the data were processed

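RNA of 8 spermatocyte libraries, 1 for each of the 8 groups, was analysed from 1 table. The authors sequenced paired-end reads and deposited FPKM values for 54532 genes, made with Novomagic. The submitters' processing notes list CASAVA 1.4 and Bowtie 0.12.2 with builds mm8 and mm9, while the gene coordinates are those of GRCm38. FPKM times gene length gave whole reads (100% within 0.05 of a whole number), from which counting intervals were made. Differences are in log2(FPKM + 1), for genes that exceeded 1 FPKM in any library compared. Stage and age were fitted with limma 3.58.1 (R 4.3.3), with an expression trend and additive terms for stage, age and genotype, and p-values were adjusted over all 21175 genes (Benjamini-Hochberg). The additive fit and the recovery of reads were tested on simulated data. The authors state DESeq2 for their own comparisons.

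The 10 genes and the gene lists were chosen with earlier results of these data known. Genes named outside the 10 are *Mfn2*, up to 3 genes a list with the largest mean absolute change between genotypes, the 5 most alike, and calls of the fit. Genes listed by name in other counts, and *Socs3* and *Myc* as at least 2-fold higher, were named after their values were seen. Labels give no separate animals, so p-values measure the spread between these libraries. Alternatives were a pseudocount of 0.1, a further median-of-ratios scaling, no FPKM filter, recovered reads (scaled to library totals, or limma voom), a block for each pair of libraries and each library left out.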

Additional observations from a re-analysis of the deposited data

Results flagged for a closer look

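*Atf3* had a stage difference of opposite sign in the genotypes. Its level in P minus that in L/Z was 0.30 at PD 24 and 0.72 at PD 52 on the log2 scale in MFN2 WT, and -0.30 and -0.64 in MFN2 cKO, and the means differed by 0.98. Both ages of MFN2 WT thus went one way and both ages of MFN2 cKO the other. The difference was not tested, because it rests on the contrast between genotypes by which the gene was chosen.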

How the results depend on the processing

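The number of genes at least 2-fold higher in MFN2 cKO stayed within 1.5 times of the reported one under the alternatives run, except in P at PD 24, where the ratio of recovered reads scaled to library totals gave 2. All 10 genes were higher in MFN2 cKO in all 4 pairs under each of these alternatives. For age, 9 genes passed with a pseudocount of 0.1 or further scaling, 10 with limma voom, 8 with the block for each pair of libraries and 4 with no FPKM filter, and between 0 and 9 with 1 library left out. For stage, 2, 2, 2 and 3 passed in the same order, 1 with no filter, and between 0 and 3 with 1 library left out. Fits within P, L/Z, PD 24 or PD 52 libraries alone, chosen after seeing the data, left 1 residual degree of freedom and called 0 genes. Over all genes, 1598 genes were lower and 2857 higher at PD 52, against 601 and 1725 with no filter and 3224 and 2345 with voom, and 2880 were lower in P, against 1657 with no filter. With no filter 39634 genes were tested in place of 21175, and the cause of the lost calls was not tested. Stage differences that reversed were all uncalled, at adjusted p of 0.436 or more. *Jun* went from 0.04 to -0.053 with further scaling, to -0.050 with voom and to -0.29 at PD 24 alone, and ranged from -0.20 to 0.31 with 1 library left out. *Atf3* went from 0.02 to -0.065 with further scaling and -0.061 with voom, and ranged from -0.32 to 0.35 with 1 left out. *Ier2* was at -0.17 at PD 24 alone and *Zfp36* at 0.078 at PD 52 alone. With 1 library a group, spread between animals within a group is unknown.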
